A study of Mus musculus with 6 samples.

Results

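The 45 genes described here encode secreted Wnt ligands, their receptors, the nuclear effectors of the pathway and its inhibitors, and for each gene the deposited peak lists were read at its promoters. The set was chosen by gene name and role, from 21951 protein-coding genes in the GENCODE vM21 annotation of the mouse genome (mm10). It holds 19 Wnt ligands, 12 receptors and co-receptors (Frizzled and LRP), 5 effectors (beta-catenin and the TCF/LEF factors), 6 secreted antagonists (Dkk and Sfrp) and 3 scaffolds of the beta-catenin destruction complex (Axin1, Axin2, Apc). A promoter was the window from 1000 bp before to 100 bp after an annotated transcription start site, and a gene was called marked if a listed H3K4me3 peak overlapped at least 1 of its promoters by 1 bp or more.

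The study asked where tagged ASH2L and trimethylated lysine 4 of histone H3 (H3K4me3) lie in mouse embryonic stem (ES) cells of the E14 line, by CUT&RUN, in which an antibody guides a nuclease to cut out the chromatin beneath it. There were 6 samples in 3 groups of 2. HA-Ash2L E14 cells, labelled as an HA-Ash2L knock-in, were profiled with anti-HA in 2 samples and with anti-H3K4me3 in 2, and 2 anti-HA samples came from parental E14 cells labelled WT, whose antibody label reads n/a and which were not analysed here. All cells were grown in serum with LIF and received doxycycline for 48 h to induce the HA-Ash2L transgene, so both lists come from cells carrying the tagged protein, and no list from cells without it was used. The H3K4me3 list held 59927 peaks called from 27328071 tags left after filtering, and the ASH2L list 2464 peaks from 25677963. Each list was called on the merged duplicates, so every value below is 1 value per gene without a replicate error, no difference could be tested, and intervals on tags cover counting error only.

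Wnt proteins are secreted lipid-modified ligands that bind Frizzled receptors together with LRP5 or LRP6. Without them, Axin and APC hold beta-catenin for phosphorylation and destruction, and with them beta-catenin accumulates and binds TCF/LEF factors on DNA. In ES cells the pathway is known for favouring self-renewal, and Tcf7l1 for repressing pluripotency genes. ASH2L is a core subunit of the MLL and SET1 complexes, which methylate H3K4. In ES cells H3K4me3 lies on the promoters of active genes and also on many developmental genes that are silent or little expressed, so a peak is not a measure of expression.

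Nearly all of the Wnt pathway genes carried H3K4me3 at a promoter. A peak overlapped a promoter of 41 of the 45 genes (91.1%), against 68.4% of all protein-coding genes. The order of these shares turned under some stricter rules. The set's share was 28.9%, against 37.2%, when the midpoint of the peak had to lie in the promoter. Among peaks with at least the median fold enrichment of the list it was 31.1% against 36.4%. The order held with 500 bp of a promoter covered (88.9% against 65.7%) and at a peak caller's score of 100 or more (86.7% against 66.0%). The marked genes were 17 of 19 ligands (89.5%), 10 of 12 receptors (83.3%), 5 of 5 effectors, 6 of 6 antagonists and 3 of 3 destruction complex genes. Receptors and effectors together reached 15 of 17 (88.2%). Under the rules on midpoint and fold enrichment ligands kept 6 and 7 of 19, and receptors and effectors 4 and 3 of 17. Counted by promoter, 104 of 147 windows of these genes were covered (70.7%), against 54333 of 93526 windows of all protein-coding genes (58.1%), and the genes had a median of 2 start sites against 3. The 4 genes without a promoter peak were the ligands Wnt5a and Wnt10b and the receptors Fzd5 and Fzd7.

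**Figure D1:**
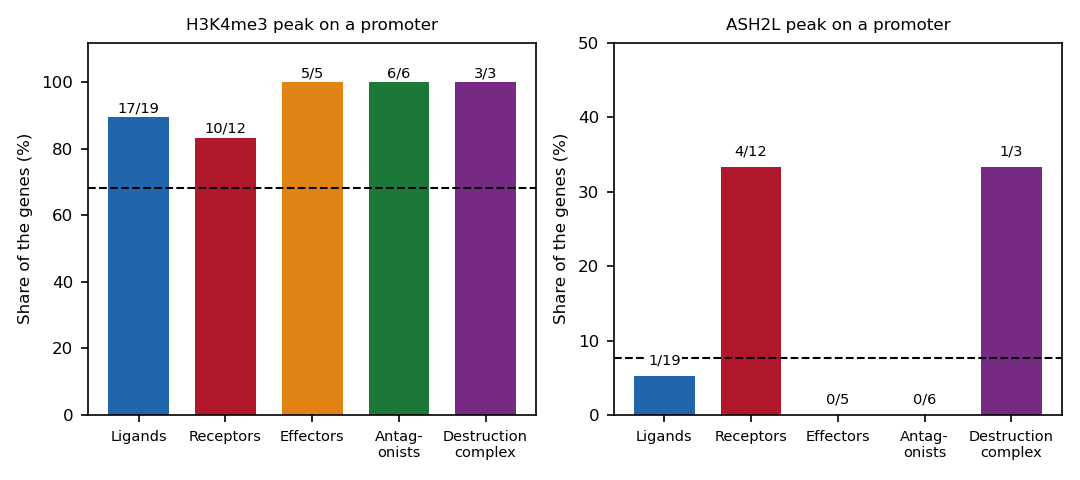
Share of genes of each role (bars, percent) with an H3K4me3 peak (left) or an ASH2L peak (right) on a promoter, with the number of genes above each bar and the share of all protein-coding genes as a dashed line (68.4% and 7.69%). All 5 roles stand above the line for H3K4me3, while ASH2L peaks lie on 4 of 12 receptors, 1 of 19 ligands, 1 of 3 destruction complex genes and no effector or antagonist.

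The promoter window left few genes near its edge. Wnt8b was just inside, with 147 of the 1101 bp of its best covered window under a peak, followed by Wnt10a with 513 bp and Sfrp5 with 670 bp. Just outside was Wnt10b, whose nearest peak ended 2404 bp from its closest start site.

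The ligand genes carried peaks of moderate length, with a median of tags somewhat below that of marked protein-coding genes. For each gene the leading peak was the promoter peak with the most tags. Among the 17 marked ligands its length ranged from 625 to 5155 bp with a median of 3233 bp, beside 2943 bp for all marked protein-coding genes (quartiles 2185 and 3948.25 bp). Tags in the leading peak ranged from 25 to 766 with a median of 406, beside 469 for all marked protein-coding genes, and 11 of the 17 ligands lay below that value and 6 above it (Wnt4, Wnt6, Wnt7a, Wnt7b, Wnt9a and Wnt11). Ligand peaks were thus slightly longer than the typical coding gene's and held fewer tags, 127.98 per kb in the median against 154.06.

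Wnt6 and Wnt9a had the longest ligand peaks, Wnt6 through a start site that is absent from RefSeq and from its protein-coding transcripts. Wnt6 had a leading peak of 5155 bp with 600 tags (chr1:74780059-74785213) over its downstream start site and a further peak of 3520 bp with 506 tags over its upstream start site, which was its leading peak without that site. Wnt9a had 4956 bp and 766 tags, the most tags of any ligand. Wnt1, a ligand of the midbrain and hindbrain, had a peak of 4336 bp that began 827 bp before its start site and ran 3508 bp into a gene of 3.98 kb, with 406 tags. Wnt3, which is needed for gastrulation, had 4020 bp and 444 tags, and Wnt3a, the ligand most used to activate beta-catenin in culture, had 3429 bp and 438 tags. Wnt7b (4344 bp, 490 tags) and Wnt7a (3233 bp, 517 tags) were close in tags, though the fold enrichment over the local background was 2.97 for Wnt7b, the lowest of all 41 genes, and 5.12 for Wnt7a. Wnt9b had the highest fold enrichment of the 41, 8.75, in a short peak of 2324 bp with 304 tags.

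Wnt8b and Wnt10a were the most weakly marked ligands. Wnt8b, a ligand of the developing forebrain, had a peak of 625 bp with 25 tags (95% exact Poisson interval 16.2 to 36.9) and a score of 54.2, where the score is −10 times log10 of the p-value and 50 is the lowest the peak caller reported at its limit of 1e-05. Its length stood at percentile 0.36 of all marked protein-coding genes. Wnt10a had 1558 bp, 138 tags and a score of 83.59. The 39 other marked genes had scores above 100. The upstream bases of Wnt8b are shown because they belong to the weakest marked promoter, a choice made after its values were seen, with CpG dinucleotides in capitals (RefSeq promoter table, GRCm38.p6, plus strand, chr19:44493222-44493471, ending 1 base before the start site).
Wnt8b: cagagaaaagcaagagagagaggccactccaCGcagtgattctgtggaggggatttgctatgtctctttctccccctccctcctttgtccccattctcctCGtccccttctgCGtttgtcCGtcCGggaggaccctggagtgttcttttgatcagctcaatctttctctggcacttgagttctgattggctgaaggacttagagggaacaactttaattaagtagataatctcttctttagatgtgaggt
This stretch held 5 CpG in 250 bases, and the promoter in the table, from 250 bases before to 50 after the start site, had a ratio of observed to expected CpG of 0.35, beside a median of 0.38 over 32851 promoters of the table.

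The 2 ligands without a promoter peak differed in how far the nearest peak lay. Wnt5a, the main ligand of beta-catenin independent signalling, had 6 annotated start sites, none of them under a peak. The nearest peak lay 12912 bp downstream of its first start site and 6211 bp downstream of its last (chr14:28517662-28518981, 1320 bp, 122 tags), inside the gene and across a coding exon, and the nearest peak upstream was 128012 bp away. Wnt10b had 5 start sites, and a peak of 2984 bp with 310 tags lay inside the gene (chr15:98771642-98774625), 2404 to 3525 bp downstream of them over coding and untranslated exons. Those 310 tags exceeded the tags at the marked promoters of Wnt5b's downstream site (250), Wnt9b (304), Wnt10a (138) and Wnt8b (25), so Wnt10b had H3K4me3 in its body and no listed peak at its start. Its upstream bases are shown as those of an unmarked ligand promoter (minus strand, chr15:98778151-98778400, CpG in capitals).
Wnt10b: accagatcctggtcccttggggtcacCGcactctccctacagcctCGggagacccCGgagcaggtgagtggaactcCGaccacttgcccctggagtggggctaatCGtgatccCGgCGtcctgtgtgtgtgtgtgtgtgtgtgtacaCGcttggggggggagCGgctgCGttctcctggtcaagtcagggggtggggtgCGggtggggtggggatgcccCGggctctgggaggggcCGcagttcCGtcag
They held 14 CpG in 250 bases, and the observed to expected ratio of its promoter was 0.56, above the median of 0.38 over the table.

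**Figure D2:**
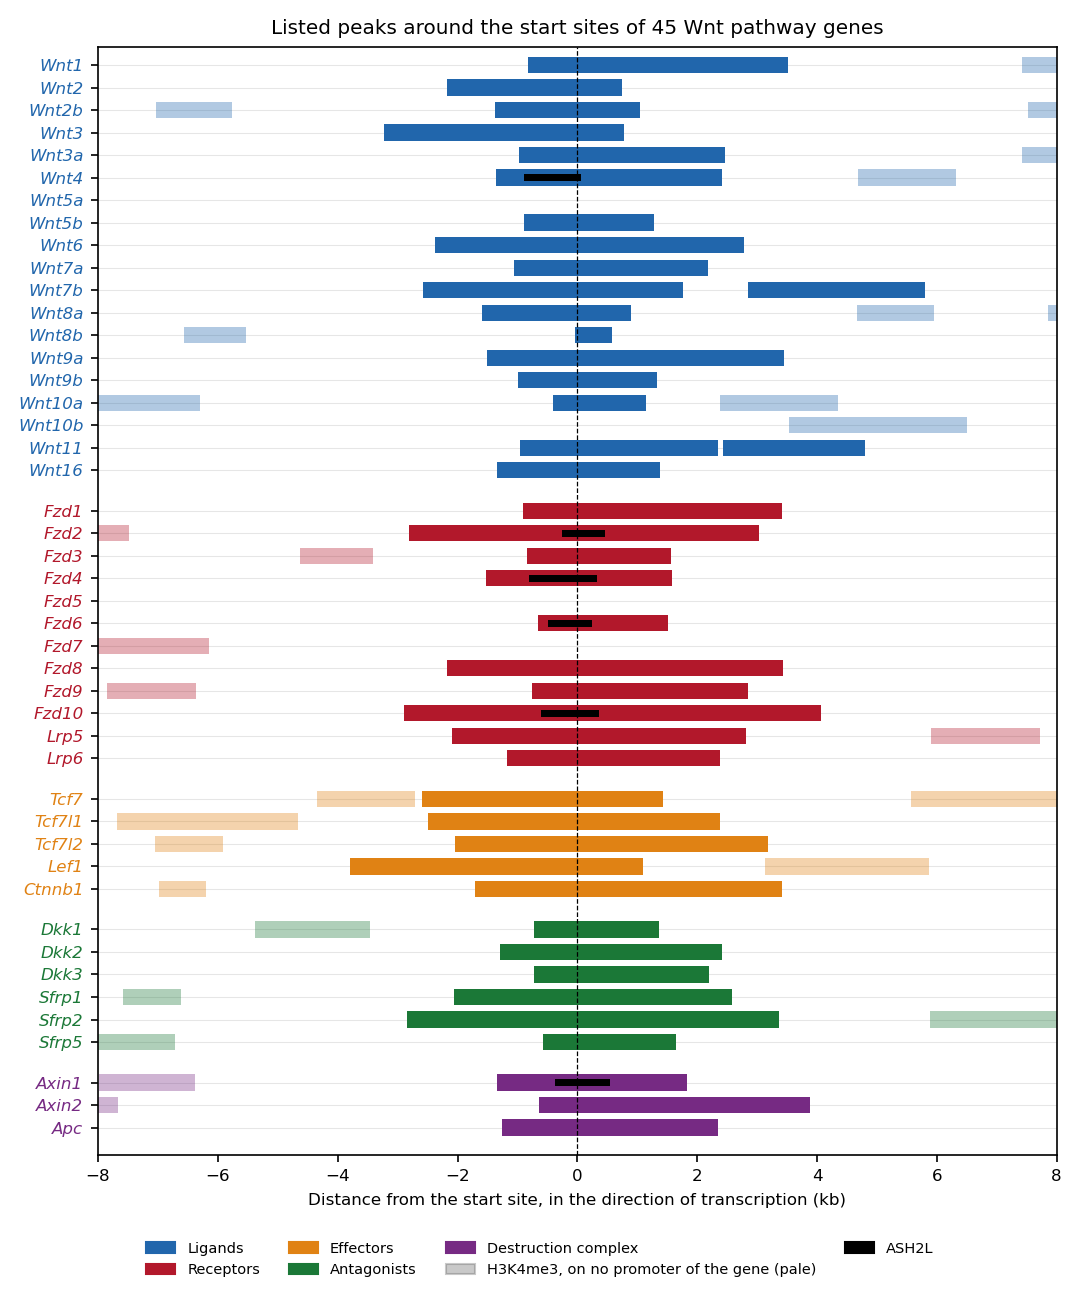
Listed peaks within 8 kb of a start site of each gene, as distance from the start site in kb along the direction of transcription. Dark bars are H3K4me3 peaks on a promoter of the gene, pale bars H3K4me3 peaks on none, and black bars ASH2L peaks, with the start site under the leading peak at 0 (the most upstream start site where there was none). The rows of Wnt5a and Fzd5 are empty, those of Wnt10b and Fzd7 hold a pale bar away from the start, and the 6 ASH2L bars all lie inside a dark bar.

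Receptor genes had a longer median leading peak than ligands, with overlapping ranges. The leading peak of the 10 marked receptors ranged from 2175 to 6960 bp with a median of 3964.5 bp, and held 296 to 1141 tags with a median of 629. Fzd10 had the longest leading peak of all 41 genes, 6960 bp with 1141 tags (chr5:128597952-128604911), which covered the whole gene and stood at percentile 97.6 of length among marked protein-coding genes. Fzd2 (5843 bp, 1057 tags) and Fzd8 (5606 bp, 1061 tags) followed, nearly equal in tags. At the lower end were Fzd3 (2402 bp, 296 tags), a receptor of axon guidance, and Fzd6 (2175 bp, 336 tags), a receptor of planar cell polarity. The co-receptor Lrp5 had 4914 bp and 744 tags and Lrp6 3548 bp and 557 tags, with a further peak of 1210 bp and 81 tags at a downstream start site of Lrp6. Fzd4, the receptor for norrin in retinal vessels, had a peak of average length, 3108 bp, with 626 tags and the highest score of the set, 1135.57. Its promoter peak was the only leading peak that also lay on a promoter of another protein-coding gene, Tmem135, and 6 other leading peaks lay on promoters of noncoding genes only.

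The receptors Fzd5 and Fzd7 had no listed peak on a promoter or anywhere in the gene. Fzd5 was 31920 bp from the nearest peak downstream, which held 25 tags, and 41348 bp from the nearest upstream. Fzd7 had a peak of 4666 bp with 401 tags ending 6140 bp upstream of its start site (chr1:59471619-59476284). Both promoters are rich in CpG: the observed to expected ratio was 0.91 for Fzd5 and 0.73 for Fzd7, at percentiles 87.9 and 73.2 of the table. The upstream bases of Fzd7 are shown for that contrast, chosen after its values were seen (plus strand, chr1:59481897-59482146, CpG in capitals).
Fzd7: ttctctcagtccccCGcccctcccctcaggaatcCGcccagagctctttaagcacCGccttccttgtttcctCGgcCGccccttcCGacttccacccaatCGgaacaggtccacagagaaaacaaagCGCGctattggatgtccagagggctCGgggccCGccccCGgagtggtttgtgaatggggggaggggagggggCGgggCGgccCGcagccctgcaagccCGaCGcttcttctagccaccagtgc
This stretch held 17 CpG in 250 bases.

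The absence of a peak for these 4 genes says only that the list held none. Of 10 genes that mark ES cells, 7 had an H3K4me3 promoter peak, and Pou5f1, Sox2 and Nanog, which define the cell type, had none. Their nearest peaks lay 4213, 25135 and 10597 bp from a start site. Of 10 genes that mark other cell types, 3 had a promoter peak, none over 1374 bp. In the whole list the median score rose to 551.51 for peaks of 3001 to 4000 bp and fell to 170.19 for those above 6000 bp, and the median fold enrichment fell from 7.22 at 1001 to 2000 bp to 3.73, while tags per kb stayed at 145 to 150 from 3001 bp upwards. The peak caller had no control sample and took its background from up to 10000 bp around each peak. Whether that step removed broad peaks at these genes was not tested.

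Effector genes had long peaks of similar length. The 5 leading peaks measured 4024 to 5218 bp (median 4884 bp) and held 609 to 984 tags (median 923). Tcf7l1 had 4876 bp and 984 tags, Tcf7l2 5218 bp and 925 tags, and Lef1 4884 bp and 923 tags. Ctnnb1, which encodes beta-catenin, had 5125 bp and 743 tags over 6 of its 15 start sites, and Tcf7 4024 bp and 609 tags. The shortest effector peak was longer than 13 of the 17 ligand peaks, and the effector with the fewest tags exceeded 16 of 17 ligands, the exception being Wnt9a.

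Ligands stood apart from the set's receptors and effectors in the size of peaks more than in the presence of a peak. That difference could not be tested without replicate values, and it was not seen at 14 other receptors and partners of the pathway. Their leading peaks had a median of 3052 bp and 456.5 tags. Receptors and effectors together had a median leading peak of 4876 bp against 3233 bp for ligands, and 743 tags against 406. Only 2 of the 15 lay below the median length of marked protein-coding genes, against 8 of 17 ligands, and 3 of 15 lay below the median tags, against 11 of 17. The ranges overlapped, from 2175 to 6960 bp and from 625 to 5155 bp. When only peaks reaching the list's median fold enrichment (6.46) were kept, the order of lengths turned, to 2175 bp for 3 receptors and effectors against 2420 bp for 7 ligands, since long peaks had low fold enrichment in these lists. Across the 41 genes length and fold enrichment had a Spearman correlation of −0.72, close to −0.73 over the 15016 marked protein-coding genes, a description of values that share the same reads and background.

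**Figure D3:**
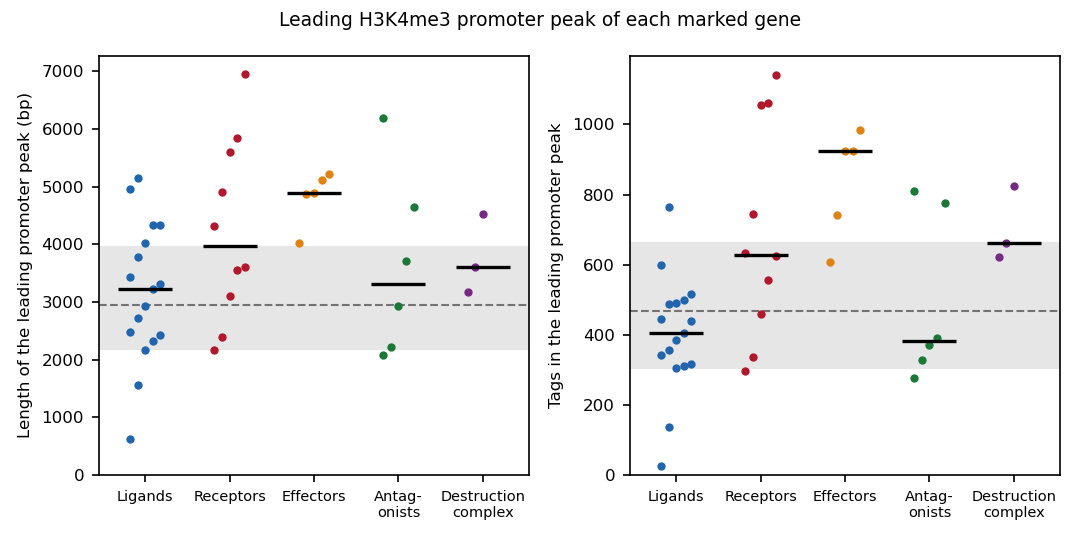
Length in bp (left) and tags (right) of the leading H3K4me3 promoter peak of each marked gene, by role. Points are genes, black bars medians, and the dashed line and grey band are the median and quartiles of all marked protein-coding genes; the effector medians, 4884 bp and 923 tags, are the highest of the 5 roles.

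Antagonists and the destruction complex were marked without exception, at 9 of 9 genes. Sfrp2, which binds Wnt proteins outside the cell, had the second longest leading peak of the set, 6201 bp with 809 tags, and its summit lay at −1836 bp from the start site. Sfrp1 had 4642 bp and 777 tags. Dkk2, Dkk3, Sfrp5 and Dkk1 had 372, 390, 329 and 278 tags, so Sfrp1 and Sfrp2 stood well above the other 4 antagonists in tags. Dkk1, which blocks LRP5 and LRP6, had the shortest of these peaks, 2075 bp. Among the scaffolds, Axin2, itself a standard target gene of beta-catenin, had 4521 bp and 825 tags, Axin1 3167 bp and 662 tags, and Apc 3602 bp and 621 tags at its leading peak. The 3 scaffolds had the densest peaks by role, with a median of 182.48 tags per kb.

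Peaks of 5000 bp or more were found at 7 of the 41 marked genes (17.1%), against 12.5% of marked protein-coding genes. They were Wnt6, Fzd2, Fzd8, Fzd10, Tcf7l2, Ctnnb1 and Sfrp2, of which 5 are receptors or effectors (33.3% of the 15) and 1 is a ligand, Wnt6, which leaves the class without its downstream start site. More than 1 promoter peak was present at 7 of the 41 genes as well, against 17.4% of marked protein-coding genes, a share near that background. Wnt7b, Wnt11 and Apc had 3 each and Wnt5b, Wnt6, Lrp6 and Tcf7l2 had 2 each. At Wnt5b the peak of 2171 bp at the upstream start (311 tags, fold enrichment 7.84) and that of 2375 bp at a downstream start (250 tags, 3.82) were separate, and at Tcf7l2 the leading peak covered 11 of 17 start sites and an internal peak of 2618 bp and 303 tags covered 2 more.

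**Figure D4:**
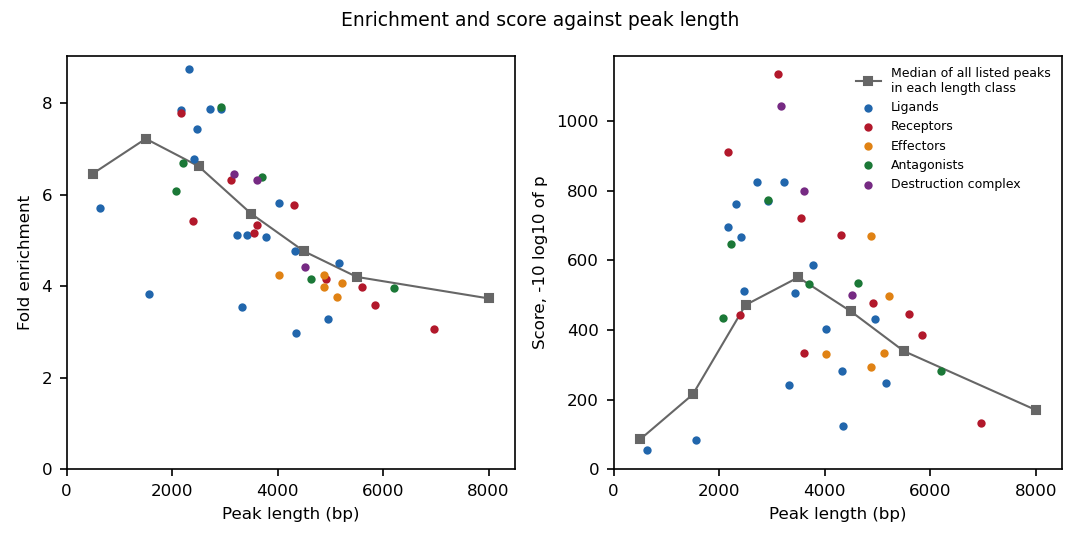
Fold enrichment (left) and score (right) of the leading promoter peaks against their length in bp, with points coloured by role and grey squares for the median of all 59927 listed peaks in each length class. The longest peak, that of Fzd10, has a fold enrichment of 3.06 and a score of 131.53, and the highest score, 1135.57 for Fzd4, belongs to a peak of 3108 bp.

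Most leading peaks reached farther downstream than upstream, as at protein-coding genes in general. Counted from the start site nearest their summit, 33 of the 41 did (80.5%), against 69.4% of marked protein-coding genes, with medians of 2350 bp downstream and 1348 bp upstream against 1615 and 1201.5 bp. This held for 10 of 10 receptors, 6 of 6 antagonists and 3 of 3 destruction complex genes, for 12 of 17 ligands, and for 2 of 5 effectors. The summit lay within 200 bp of a start site at 22 of the 41 genes (53.7%), against 68.2% of marked protein-coding genes, among them 9 of 10 receptors, 8 of 17 ligands and none of the 5 effectors.

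Beyond the promoters, H3K4me3 peaks lay inside 26 of the 45 genes (57.8%), against 39.7% of all protein-coding genes, whose median length was 17.4 kb against 22.7 kb for the set. There were 99 such peaks, with a median of 1328 bp and 102 tags, 62 of them in introns only. Of the 99, 6 lay on a promoter of another gene, 2 of them in Tcf7 and 1 each in Wnt5b, Tcf7l1, Lef1 and Axin2. The most lay in 3 of the 4 TCF/LEF genes, 14 in Tcf7l1, 12 in Tcf7l2 and 12 in Lef1, while Tcf7 had 3. Per 100 kb of Tcf7l1, Tcf7l2 and Lef1 this came to 8.6, 6.26 and 10.5, beside a median of 1.47 and an upper quartile of 3.19 for the 2492 protein-coding genes of 100 kb or more. The other members of that length, Wnt5b, Lrp5, Lrp6 and Apc, had 7.15, 4.91, 4.98 and 4.92, so all 7 lay above the upper quartile. In the 3 genes of 50 to 100 kb the excess was absent: Dkk2 (95 kb) and Axin1 (57.1 kb) had no such peak and Fzd3 (70 kb) had 1. Among shorter genes, 12 of 17 members of 20 to 50 kb had such a peak (70.6%, against 50.3% of protein-coding genes). Under 20 kb it was 6 of 18 (33.3%, against 19.5%). The largest peak, 6179 bp with 1072 tags in an intron of Wnt5b (chr6:119478166-119484344), lay on a promoter of another protein-coding gene, Fbxl14.

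Ligand genes often had a peak over their last exon. A peak that lay on no promoter of the gene overlapped the last exon of a protein-coding transcript at 13 of 19 ligands (68.4%), against 16.2% of 20504 multi-exon protein-coding genes. The same was seen at 0 of 6 multi-exon receptors, 2 of 5 effectors (Tcf7l1, Tcf7l2), 2 of 6 antagonists (Dkk3, Sfrp2) and 2 of 3 scaffolds (Axin2, Apc). The rule left out the promoter peaks of the ligands Wnt1 and Wnt6 that reached the last exon. The pattern was noticed in the data and is given without a test. Beside a median of 113 tags in the whole list, Wnt10b had 310, Wnt10a 270 and Wnt8b 241, where the last-exon peak exceeded the promoter peak of both Wnt10a and Wnt8b, and the other 10 held 30 (Wnt16) to 136 (Wnt3a). Base composition and length moved with it. The longest last exon of the ligands had a median of 53.4% GC and 2083 bp, beside 45.5% and 1307.5 bp for all multi-exon protein-coding genes, and the share of such exons with a peak was 5.73% below 45% GC, 23.7% from 50 to 55% and 46% at 60% or more. Counting only that exon, 12 of 19 ligands (63.2%) and 14.3% of all genes had a peak. The part of composition and length in this was not tested.

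ASH2L peaks were listed at few promoters, of this set as of all genes. A peak overlapped a promoter of 6 of the 45 genes (13.3%), against 7.69% of all protein-coding genes. At a score of 100 or more none of the 45 was left against 0.934% of all genes, and among peaks with at least the list's median fold enrichment it was 4.44% against 3.73%. Among genes marked by H3K4me3 it was 6 of 41 (14.6%) against 10.9%. They were 4 of 12 receptors (Fzd2, Fzd4, Fzd6, Fzd10), 1 of 19 ligands (Wnt4), 1 of 3 destruction complex genes (Axin1) and none of the 11 effectors and antagonists. All 6 lay wholly inside the H3K4me3 promoter peak of the same gene. Among all 1687 protein-coding genes with an ASH2L promoter peak, 1642 also had an H3K4me3 promoter peak. With 6 genes in all, whether the roles differ could not be judged.

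The ASH2L peaks at these promoters were 730 to 1140 bp long, beside a median of 717 bp and 32 tags in the ASH2L list, and all but that of Fzd4 had their summit close to the start site. Fzd4 had 57 tags (95% exact Poisson interval 43.2 to 73.9) in 1140 bp with a score of 99.46, at percentile 90.3 of the list. Axin1 had 47 tags (34.5 to 62.5) and a score of 98.74, and Wnt4 46 tags (33.7 to 61.4) and 73.32. Fzd10, Fzd6 and Fzd2 had 38, 33 and 29 tags, with intervals that overlapped those of Axin1 and Wnt4, and Fzd2 had the lowest score, 53.24. The summits of the ASH2L peaks lay between −88 and 172 bp from a start site at 5 of the genes, and at −445 bp at Fzd4. Among these genes, Fzd2 and Fzd10 had a leading H3K4me3 peak of 5000 bp or more, while that of Fzd6 was the shortest of the receptors. Wnt7a had an ASH2L peak of 731 bp and 31 tags in an intron (chr6:91388486-91389216), its summit 22417 bp downstream of a start site and with no H3K4me3 peak on it.

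The upstream bases of Wnt4 and Fzd4 are shown as promoters with an ASH2L peak, limited to bases outside annotated exons, with CpG in capitals (RefSeq promoter table, GRCm38.p6, plus strand, chr4:137277385-137277488 and chr7:89404223-89404354).
Wnt4: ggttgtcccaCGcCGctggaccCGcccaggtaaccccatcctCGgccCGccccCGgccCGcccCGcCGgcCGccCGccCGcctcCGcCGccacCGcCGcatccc
Fzd4: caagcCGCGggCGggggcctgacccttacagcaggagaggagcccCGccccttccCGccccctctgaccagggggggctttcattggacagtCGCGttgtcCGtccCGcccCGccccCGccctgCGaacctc
The first held 16 CpG in 104 bases and the second 12 in 132. Their promoters had observed to expected ratios of 0.98 and 0.81, and that of Fzd10 0.99. The table had an entry for 31 of the 45 genes (68.9%), under the 80% required, so a comparison of composition over the whole set is void.

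TCF/LEF factors bind the letters CTTTGAT, which were searched on both strands (ATCAAAG on the other) in the same windows of that table. The letters occurred in 2 of 40 promoters of the set (5.0%) and in 1225 of 32851 promoters in the table (3.73%), a share near that of the table. Both were ligands, and the bases around the match are shown with the match in capitals (Wnt11, plus strand, chr7:98835041-98835087; Wnt5b, minus strand, chr6:119449431-119449477).
Wnt11: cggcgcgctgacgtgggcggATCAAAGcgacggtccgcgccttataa
Wnt5b: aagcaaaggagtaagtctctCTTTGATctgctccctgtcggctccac
The match began 51 bases before the Wnt11 start site, under its leading peak of 3319 bp and 489 tags, and 71 bases before a downstream start site of Wnt5b, under the peak with 250 tags. A match is a description of the letters and no evidence of a bound factor.

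Neighbouring ligand genes had separate peaks. Among the 4 pairs whose start sites lay within 50000 bp, the closest were Wnt6 and Wnt10a at 9077 bp, then Wnt1 and Wnt10b at 11707 bp, Wnt3a and Wnt9a at 16176 bp, and Wnt3 and Wnt9b at 24329 bp. The distance of Wnt6 is from its downstream start site, which is absent from RefSeq, and its first place rests on that site. None shared a promoter peak. The genes of each pair were unequal in tags, with 600 at Wnt6 (506 at its upstream start site) and 138 at Wnt10a, 406 at Wnt1 and no promoter peak at Wnt10b, 438 at Wnt3a and 766 at Wnt9a, and 444 at Wnt3 and 304 at Wnt9b.

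Other genes of the pathway were read in the same way. In a list of 50, H3K4me3 lay on a promoter of 44 (88.0%), against 68.4% of all protein-coding genes. With the peak midpoint in the promoter it was 23 (46.0%), against 37.2% of all genes and 28.9% of the 45. Among H3K4me3 peaks with at least their median fold enrichment it was 16 (32.0%), below the 36.4% of all genes. The marked genes of the list had a median leading peak of 3325 bp and 514.5 tags. The 6 unmarked were Notum, a Wnt deacylase, the antagonists Dkk4 and Sost, the cytoplasmic Dvl2 and Csnk1a1, and the corepressor Tle3. Their nearest peaks lay 1033 bp (Sost), 1433 bp (Tle3), 1916 bp (Dvl2), 2901 bp (Dkk4), 8968 bp (Notum) and 9745 bp (Csnk1a1) from a start site. All 14 receptor partners (R-spondins, their Lgr receptors, Ror and Ryk kinases, Rnf43, Znrf3 and Kremen) were marked. Their median leading peak was 3052 bp with 456.5 tags, beside 3233 bp and 406 tags for the ligands. The 6 target genes had the highest median length of the list's groups, 5643.5 bp. Ccnd1 (7485 bp), Myc (7438 bp) and Sp5 (7045 bp) exceeded the 6960 bp of Fzd10, while Cdx2 (4242 bp), T (3340 bp) and Cdx1 (2915 bp) were shorter than non-target genes such as Tle4 (6640 bp). ASH2L lay on promoters of 7 of the 50 (14%), against 7.69% of all protein-coding genes: Lgr4, Ryk, Kremen1, Gsk3b, Nkd1, Bcl9l and Cdx1.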

How the data were processed

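Duplicate CUT&RUN libraries of each antibody were mapped to mm10 with Bowtie2 and merged, and the authors kept fragments under 120 bp and called peaks with MACS without a control (version 1.4.3 in the list headers), although the headers give tag sizes of 142 and 151 bp. The deposited lists give tag counts per peak, a score (−10 times log10 of p, at least 50) and a fold enrichment ratio over the local background, with no values per sample. The labels give 1000000 cells per anti-HA experiment and 100000 per anti-H3K4me3 experiment. Peaks were intersected with promoters of GENCODE vM21 (mm10) in Python 3.11.15 with pandas 2.3.3. No peak passed a GRCm38 chromosome end, 2 peaks on unmatched names were unused, and the overlap code was tested on simulated peaks. The leading peak was the promoter peak with most tags. All 45 genes could be named: unmarked genes, extremes of length and tags, genes with several peaks or with ASH2L, and neighbouring ligands were. Members and lists were chosen with earlier results of these data known. Alternatives varied the window, the transcripts, the overlap and the strength of peaks.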

Additional observations from a re-analysis of the deposited data

How the results depend on the processing

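Of 90 summary values recomputed under 9 alternatives, 76 stayed close to the values given (counts within 1.5 times, medians within the spread over genes). The exceptions came from 3 alternatives that demand more of a peak. Requiring the midpoint of the peak inside the promoter left 13 members, 6 ligands, 4 receptors and effectors, 3 antagonists and destruction complex genes and 23 of the other pathway genes with H3K4me3, so that the set's share (28.9%) fell below that of all protein-coding genes (37.2%). Requiring a fold enrichment at or above the list's median left 14 (31.1%, against 36.4% of all genes), 7, 3, 4 and 16 in that order and 2 members with ASH2L, and the medians of receptors and effectors became 2175 bp and 303 tags, against 2420 bp and 317 tags for ligands, which turned the order of the groups. The former drops peaks centred past 100 bp downstream of a start site, and the latter drops most long peaks, by construction. At a score of 100 or more no member kept an ASH2L promoter peak (0 of 45, against 0.934% of all genes), and Wnt8b and Wnt10a lost H3K4me3. A window of 2500 bp on both sides added Wnt10b, the most upstream start site alone lost Ctnnb1, and 500 bp of overlap lost Wnt8b. Without Wnt6's downstream start site, as in RefSeq, its leading peak was that of 3520 bp. No paired analysis was possible because each list was called on merged duplicates and carries no replicate values, which also prevented leaving out a replicate. The count of last exons with a peak was added after seeing the data and went from 13 to 12 ligands with the longest exon alone. The ASH2L promoter peaks held 29 to 57 tags each, so their counting error is wide.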
